A study of Mus musculus with 16 samples.

Results

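The 10 genes described here code for the peroxisome proliferator-activated receptors (Ppara, Ppard, Pparg), the retinoid X receptors (Rxra, Rxrb, Rxrg), the coactivators PGC-1β (Ppargc1b) and SRC-1 (Ncoa1), the estrogen-related receptor ERRα (Esrra) and the corepressor RIP140 (Nrip1). They were chosen by symbol, with earlier results of these data known, and all 10 were found among the 20295 genes of the count table. PPARs are nuclear receptors that bind fatty acids and their derivatives and act on DNA as heterodimers with an RXR. In brown adipocytes PPARγ is required for adipocyte differentiation and PPARα promotes genes of fatty acid oxidation, while PGC-1 proteins coactivate PPARs and ERRα on mitochondrial genes. RIP140 is a ligand-dependent corepressor known for restraining oxidative genes in fat.

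RNA-seq read counts came from 16 samples of immortalized mouse brown preadipocytes differentiated for 7 days into brown adipocytes. All cells were pretreated for 1 h and then stimulated for 3 h, which gave 6 groups: vehicle in both steps (2 samples), SR-3420 alone at 10 µM (2 samples), triacsin C at 5 µM without and with SR-3420 (3 samples each), and etomoxir at 50 µM without and with SR-3420 (3 samples each). The compound SR-3420 binds ABHD5, the activator of the lipase ATGL, so that lipolysis starts with neither a receptor nor cAMP involved. Triacsin C inhibits the long-chain acyl-CoA synthetases that activate fatty acids, and etomoxir inhibits CPT1, which admits them to mitochondria. The study's figure legend gives a higher dose of SR-3420 than the sample labels, and the dose of the labels is used here. Total counts per sample ran from 9452861 to 25670624 with a median of 13602886. The cells are 1 line, immortalized with the SV40 large T antigen, so the samples are repeated cultures and not separate animals.

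The label brown adipocyte was compared with marker genes. All 8 general adipocyte markers were abundant, Fabp4 the most, at a mean of 6872 CPM in vehicle (CPM, the counts scaled to library size after TMM normalization). Of the 9 brown adipocyte markers, Cox8b was the most abundant, at a mean of 118 CPM in vehicle, followed by Ebf2 at 36.4, Prdm16 at 34.8, Cidea at 17.4, Elovl3 at 9.22 and Cox7a1 at 6.07 CPM. The other 3 were at or near 0: Ucp1, the uncoupling protein of brown fat, had 5 to 57 counts per sample, Zic1 had 0 to 5 and Dio2 had 0 to 2. Markers of macrophages, endothelium and skeletal muscle summed to at most 17.9, 3.58 and 12.9 CPM in any sample. The 8 preadipocyte or fibroblast markers, led by Col1a1, summed to 2350 and 2073 CPM in vehicle.

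All 10 genes passed the filter on low counts, with between 66 counts (Rxrg) and 7537 counts (Rxra) in a sample. Per kb of counted exon length, Pparg was the most abundant in vehicle, with a mean of 177 CPM per kb, followed by Rxra at 87.9, Esrra at 64.1, Nrip1 at 54.4, Ppard at 42.2, Rxrb at 40.8, Ncoa1 at 18.4, Ppargc1b at 17.9, Ppara at 12.0 and Rxrg at 9.75 CPM per kb. The vehicle ranges of Rxra and Esrra, of Esrra and each of Nrip1, Ppard and Rxrb, of Ppard and Rxrb, and of Ncoa1 and Ppargc1b overlapped. Within each vehicle sample, however, Rxra lay above Esrra, Esrra above Ppard and Rxrb, and Ppard above Rxrb. The order of Esrra and Nrip1, and that of Ncoa1 and Ppargc1b, switched between the vehicle samples. Averaged over the 6 groups, Pparg was again at the top, at 105 CPM per kb, and Rxrg at the bottom, at 8.26 CPM per kb. The ratio of the highest to the lowest group mean was 5.67 for Ppargc1b, 4.92 for Ppara, 4.00 for Ncoa1, 3.02 for Rxra, 3.00 for Nrip1, 2.94 for Rxrg and 2.80 for Pparg. It was 1.49 for Esrra, 1.46 for Ppard and 1.18 for Rxrb, which passed the edgeR test in 0 of the 10 comparisons.

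**Figure D1:**
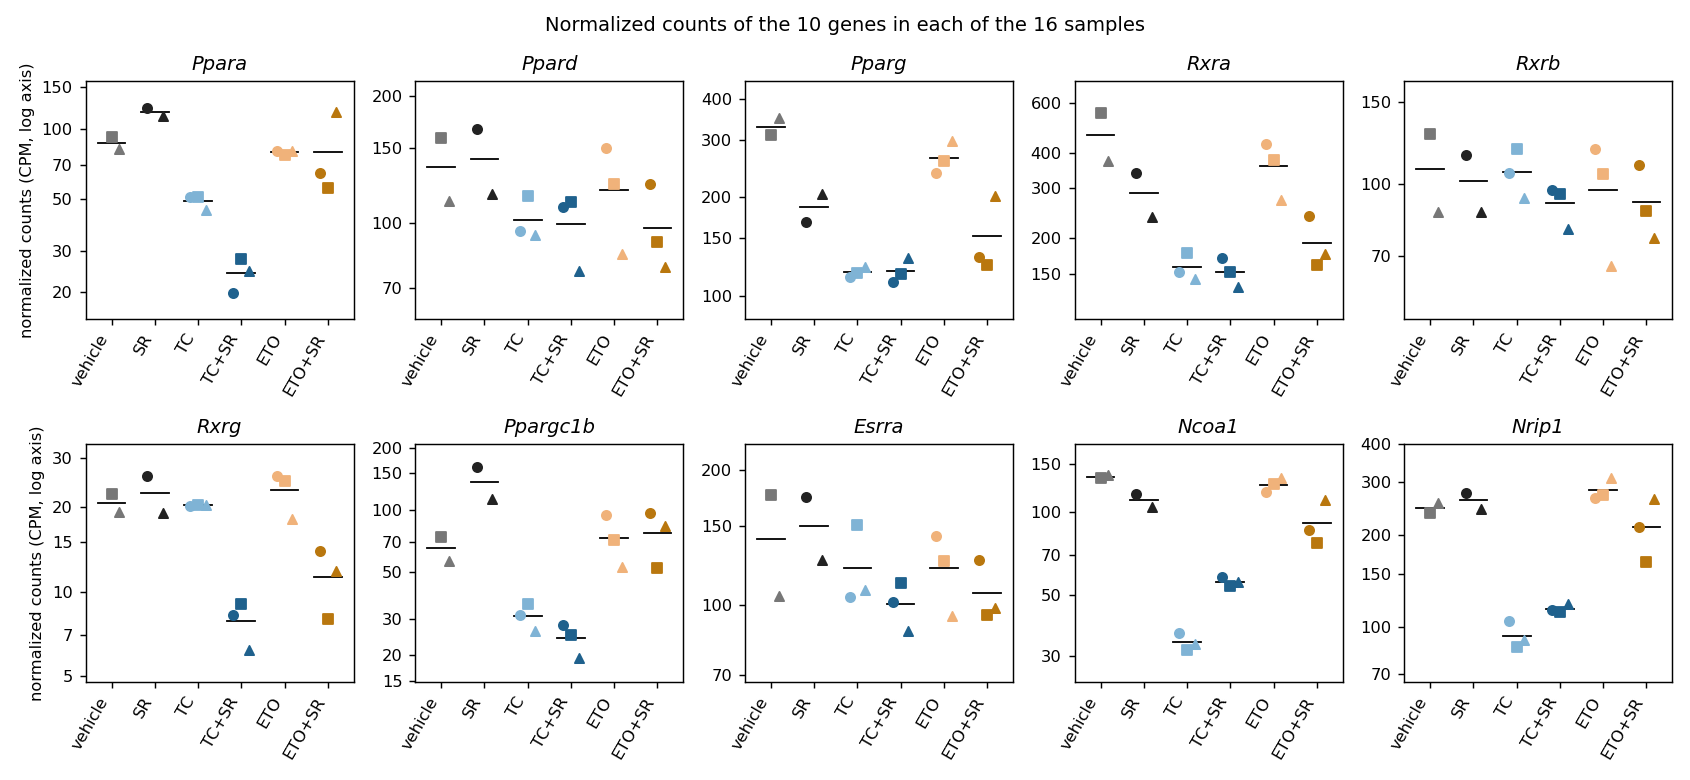
Normalized counts (CPM, log axis) of the 10 genes in each of the 16 samples, with 1 point per sample, shaped by replicate number, and a line at each group mean (SR, SR-3420; TC, triacsin C; ETO, etomoxir). In triacsin C, the points of Pparg, Rxra, Ncoa1 and Nrip1 lie below both vehicle points, and in triacsin C with SR-3420 those of Ppara lie below every other group.

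In the mouse genome (mm9) the genes differ widely in size. Ncoa1 spans 237 kb of chromosome 12 with 23 exons, Pparg 129 kb of chromosome 6, Rxra 86.1 kb of chromosome 2, Nrip1 82.2 kb of chromosome 16, Ppara 71.3 kb of chromosome 15, Ppard 68.7 kb of chromosome 17 and Rxrg 41.3 kb of chromosome 1. Ppargc1b spans 102 kb. Rxrb and Esrra are compact, with 6.59 kb on chromosome 17 and 10.8 kb on chromosome 19. Esrra overlaps Trmt112 on the opposite strand, and since the strand use of the counting is not stated, its counts may include reads of that gene.

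Promoter sequences from RefSeq (mouse build GRCm38.p6, 250 bases before to 50 bases after each start) were found for 9 of the 10 genes, 15 promoters in all, with no entry for Ppargc1b. The hexamer AGGTCA, the core motif of nuclear receptors, stood in 4 of the 15 promoters on either strand (26.7%), against 5340 of all 32851 promoters (16.3%). The paired PPAR and RXR motif AGGTCANAGGTCA, the ERR motif TCAAGGTCA and the cAMP response element TGACGTCA each stood in 0 of the 15, against 0.0396%, 0.423% and 1.79% of all promoters. AGGTCA is part of the first 2 of these. The 60 bases around each match are shown for Pparg, Rxra and Rxrg, the 3 genes with a match, all read from the plus strand, with the hexamer or its reverse complement in capitals. A match describes the letters and not a bound site.
Pparg, chr6:115361089-115361148: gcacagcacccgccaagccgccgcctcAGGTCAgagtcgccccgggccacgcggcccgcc
Pparg, chr6:115362313-115362372: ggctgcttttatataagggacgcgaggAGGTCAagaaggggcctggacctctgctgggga
Rxra, chr2:27709217-27709276: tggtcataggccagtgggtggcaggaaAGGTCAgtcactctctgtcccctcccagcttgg
Rxra, chr2:27709178-27709237: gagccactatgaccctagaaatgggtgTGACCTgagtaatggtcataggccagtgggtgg
Rxrg, chr1:167618150-167618209: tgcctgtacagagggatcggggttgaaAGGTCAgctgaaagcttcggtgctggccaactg

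The comparison of triacsin C with vehicle asked what blocking fatty acid activation does to unstimulated cells. Here 6 of the 10 genes fell (Ppara, Pparg, Rxra, Ppargc1b, Ncoa1 and Nrip1) and 0 rose, where 6.94% of all 12786 genes tested fell and 4.77% rose. A gene was called when its adjusted p was below 0.05 in the edgeR quasi-likelihood test, corrected over all genes tested by the Benjamini-Hochberg method. The other 4 had 0 unadjusted p-values below 0.05, and DESeq2 also called 6 of the 10. The median log2 fold change of the 10 genes was −0.96, and that of all genes 0.07. In bulk RNA, fewer cells of a type and less RNA per cell cannot be told apart.

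Among the PPARs, Pparg, the receptor that drives adipocyte differentiation, had 309 and 349 CPM in vehicle and 114, 117 and 122 CPM in triacsin C. The groups lay far apart, with all 3 triacsin C samples below both vehicle samples. Pparg fell by 1.48 on the log2 scale (SE 0.19, 95% CI −1.89 to −1.08, edgeR adjusted p = 0.000182). Ppara, the receptor of fatty acid oxidation, had 92.0 and 81.7 CPM in vehicle and 50.7, 50.7 and 45.0 CPM in triacsin C, again without overlap. It fell by 0.83 (SE 0.25, edgeR adjusted p = 0.0427), a call that was lost without any 1 of the 5 samples (vehicle replicates 2 and 3, triacsin C replicates 1, 2 and 3), where the edgeR adjusted p was 0.0917 to 0.187 and the log2 fold change −0.92 to −0.75. Ppard, the widely expressed receptor of the family, had 159 and 113 CPM in vehicle and 93.5 to 116 CPM in triacsin C, and these overlapped. Between samples of the same replicate number it was lower with triacsin C, at 116 against 159 CPM in replicate 2 and 93.5 against 113 CPM in replicate 3.

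Among their partners, Rxra, the most abundant RXR per kb in vehicle, had 551 and 375 CPM in vehicle and 153, 178 and 144 CPM in triacsin C. The triacsin C samples lay below both vehicle samples, which differed between themselves more than those of Pparg. Rxra fell by 1.55 (SE 0.24, 95% CI −2.06 to −1.03, edgeR adjusted p = 0.000773). Rxrb had 86.9 to 128 CPM and Rxrg 19.2 to 22.4 CPM over the samples of both groups, which overlapped. Their log2 fold changes with triacsin C were −0.02 and −0.03.

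Of the coactivators, Ncoa1, a histone acetyltransferase that nuclear receptors recruit, had 133 and 137 CPM in vehicle and 36.4, 31.5 and 33.2 CPM in triacsin C. The groups were tight and far apart. Ncoa1 fell by 2.0 (SE 0.14, 95% CI −2.31 to −1.69, edgeR adjusted p = 3.09e-06), to 0.250 of its vehicle level. Ppargc1b, the coactivator of mitochondrial genes, had 74.1 and 56.6 CPM in vehicle and 31.2, 35.1 and 26.2 CPM in triacsin C, without overlap. It fell by 1.08 (SE 0.29, edgeR adjusted p = 0.0249), a call lost without vehicle replicate 2, vehicle replicate 3, triacsin C replicate 1 or triacsin C replicate 3, with an edgeR adjusted p of up to 0.170 and a log2 fold change of −1.27 to −0.88. Its receptor partner Esrra had 176 and 105 CPM in vehicle and 104, 151 and 108 CPM in triacsin C, which overlapped. The corepressor gene Nrip1 had 237 and 256 CPM in vehicle and 104, 86.0 and 90.6 CPM in triacsin C. All 3 treated samples lay below both vehicle samples, and Nrip1 fell by 1.39 (SE 0.17, 95% CI −1.76 to −1.03, edgeR adjusted p = 0.000117). The calls of Pparg, Rxra, Ncoa1 and Nrip1 were kept in 5 of 5 fits that each left out 1 sample.

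**Figure D2:**
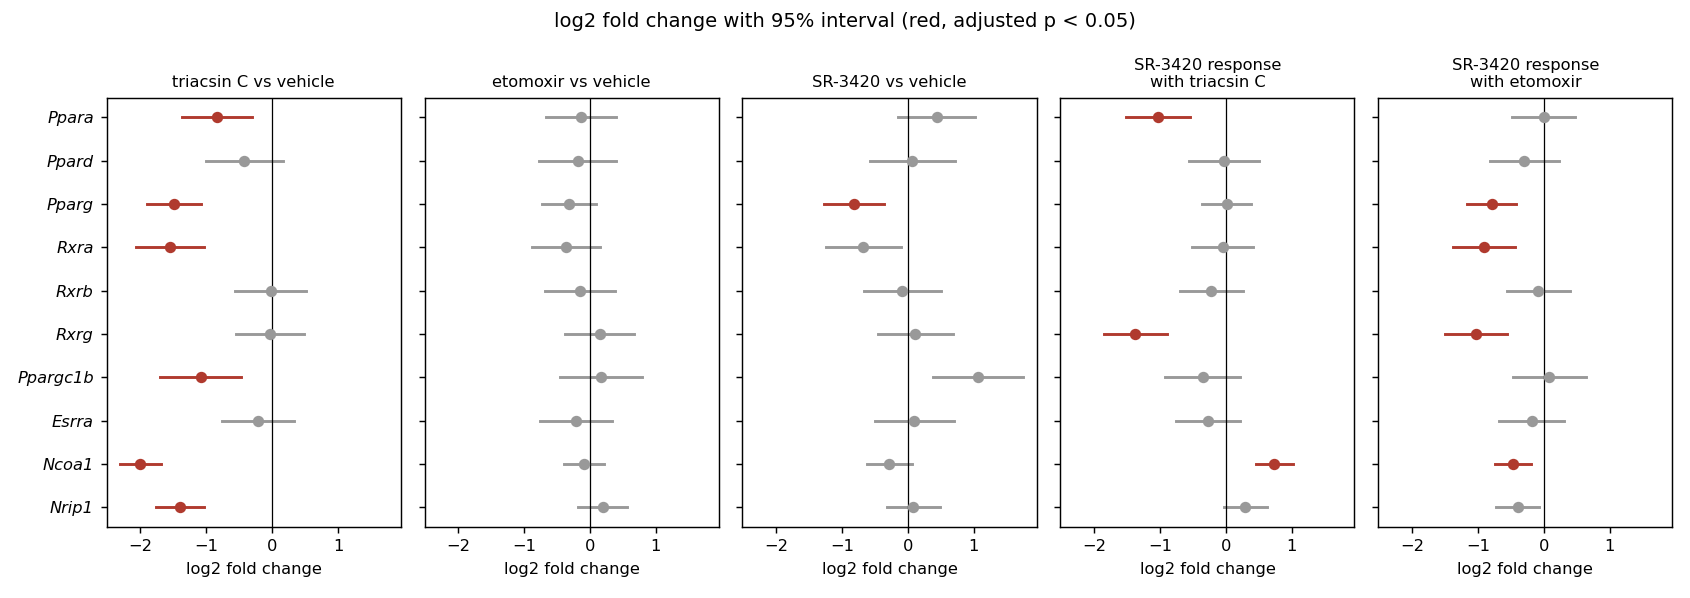
Log2 fold change of each of the 10 genes in 5 comparisons, each inhibitor and SR-3420 against vehicle and SR-3420 added to each inhibitor, with bars for the 95% confidence interval and red where the edgeR adjusted p was below 0.05. The 6 red points for triacsin C against vehicle lie between −2.0 and −0.83, and Ncoa1 has a red point above 0 where SR-3420 was added to triacsin C.

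The size of a gene in the genome moved with its response to triacsin C. Across the 12786 genes, which are not independent replicates and share the same 5 samples, the Spearman correlation of log2 fold change with genomic span was −0.556. Genes under 5 kb had a median log2 fold change of 0.35 (1653 genes) and those over 160 kb one of −0.63 (738 genes), and the share that fell was 0.544% and 41.3%. The 6 genes that fell span 71.3 to 237 kb. Within their own span class, Rxra lay lower than all but 3.21% of genes, Pparg 3.67%, Nrip1 4.46%, Ncoa1 4.88%, Ppara 5.84% and Ppargc1b 9.93%. The part of genomic span in the lower counts was not tested beyond 1 alternative, chosen after seeing the data, which removed each sample's trend over genomic span. With it, Ncoa1 (−1.21), Nrip1 (−0.84) and Pparg (−0.79) were still called, with an edgeR adjusted p of at most 0.00645. Rxra (−0.98, edgeR adjusted p = 0.0764), Ppara (−0.33) and Ppargc1b (−0.46) were not. Over all genes the same step turned 610 higher and 887 lower calls into 766 and 220.

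**Figure D3:**
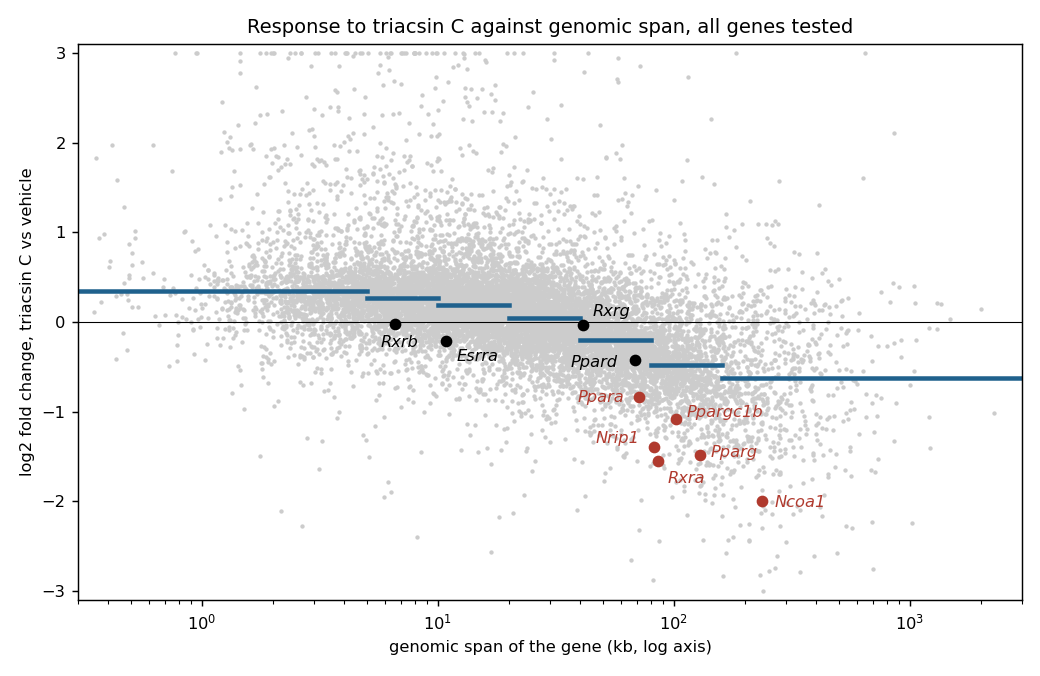
Log2 fold change of triacsin C against vehicle over genomic span (kb, log axis) for the 12786 genes tested (grey, with the 55 genes beyond a size of 3 drawn at the edge), blue lines for the median of each span class, and the 10 genes in red where called and black where not. The class medians go from 0.35 in genes under 5 kb to −0.63 in those over 160 kb, and the 6 called genes lie below the median of their class.

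Other genes of these classes were counted as well, in a comparison where 6.94% of all genes fell and 4.77% rose. Their lists were chosen with earlier results of these data known. The part of genomic span in the counts of these other lists was not tested. Of 23 other coregulators tested, 9 fell with triacsin C and 1 rose, with a median log2 fold change of −0.41. They included Ncoa2, a second SRC family coactivator (−2.13), Prdm16, a coregulator of brown fat identity (−2.14), and the acetyltransferase gene Kat2b (−1.53), while Ncoa5 rose (0.50). Of 25 other nuclear receptors, 7 fell and 1 rose, with a median of −0.35, led by Esr1 (−2.60) and Rora (−1.53) below and Nr4a2 (0.76) above. Of 45 PPAR target genes, 6 rose and 1 fell, with a median of 0.24. The hormone gene Fgf21 (1.98), the lipase inhibitor gene Angptl4 (1.5) and the kinase gene Pdk4 (1.16) rose, and the acyl-CoA synthetase gene Acsl1 fell (−0.84). Of 23 ERR targets edgeR called 0, 4 had an unadjusted p below 0.05 and DESeq2 called 2. The adipocyte markers summed to 24934 and 22004 CPM in vehicle and to 23337, 25819 and 24014 CPM in triacsin C, and edgeR called 0 of the 8, with 0 at an unadjusted p below 0.05 and 0 by DESeq2. The fibroblast markers summed to 3414, 2961 and 2599 CPM in triacsin C, all above the vehicle samples at 2350 and 2073 CPM. All 8 had a positive log2 fold change, with a median of 0.35, and edgeR called 0, with 0 at an unadjusted p below 0.05 and 0 by DESeq2. Of 7 brown markers tested Prdm16 and Ebf2 (−1.13) fell and 0 rose, though the other 5 were above 0 and the median was 0.41. The macrophage marker Cd68 rose (1.92), from a mean of 4.06 to 15.5 CPM, with its other markers near 0, and the part of other cells in the results was not tested.

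Etomoxir against vehicle asked the same of mitochondrial uptake. In edgeR 0 of the 10 genes were called, 0 had an unadjusted p below 0.05 and DESeq2 called 0, where 0.0235% of all genes were called (3 genes, with 283 at an unadjusted p below 0.05 and 17 by DESeq2). Pparg had 237, 258 and 298 CPM in etomoxir, all below the vehicle samples, at a log2 fold change of −0.32. Ncoa1 had 119, 127 and 133 CPM and Ppara 80.5, 77.1 and 80.4 CPM, near their vehicle levels. The PPAR target Fgf21 rose (2.16, SE 0.23, edgeR adjusted p = 0.0021), and DESeq2 called 2 of the 45 PPAR targets. Among the ERR targets, other coregulators and other nuclear receptors edgeR and DESeq2 called 0, with 0, 0 and 2 at an unadjusted p below 0.05.

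SR-3420 against vehicle asked what lipolysis does when fatty acids can be activated and burned. These groups share only replicate number 3. Pparg alone was called lower, 1 of 10 where 2.79% of all genes fell, and 0 of the 10 were called higher by edgeR, where 4.75% of all genes rose. At an unadjusted p below 0.05 stood 3 of the 10, and DESeq2 called 2, Pparg and Ppargc1b. Pparg had 168 and 205 CPM with SR-3420, both below the vehicle samples. It fell by 0.82 (SE 0.21, 95% CI −1.27 to −0.36, edgeR adjusted p = 0.0327). This call was lost in all 4 fits without 1 sample (vehicle replicates 2 and 3, SR-3420 replicates 1 and 3), with an edgeR adjusted p of 0.0683 to 0.242. It was also lost with no filter on low counts (edgeR adjusted p = 0.0579) and in a fit of these 2 groups only (edgeR adjusted p = 0.202).

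Ppargc1b had 160 and 113 CPM with SR-3420, both above the vehicle samples at 74.1 and 56.6 CPM. Its log2 fold change of 1.06 (SE 0.32) missed the edgeR threshold at an adjusted p of 0.0598 and passed in DESeq2, at 0.0211. Rxra had 340 and 239 CPM, both below its vehicle samples, at a log2 fold change of −0.68 (edgeR adjusted p = 0.150). It passed with library size as the only scaling, at −0.80, a setting that moved the median of all genes by −0.11 and the calls from 607 higher and 357 lower to 467 and 572. Ppara had 123 and 113 CPM, above both vehicle samples, with a log2 fold change of 0.44 that was not called. Nrip1 had 277 and 245 CPM, Ncoa1 117 and 105 CPM and Rxrg 25.9 and 19.1 CPM, with log2 fold changes of 0.08, −0.28 and 0.11.

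Among PPAR targets, 7 of 45 rose and 1 fell with SR-3420, where 4.75% of all genes rose and 2.79% fell. Their median was −0.08 against 0.00 for all genes. Fgf21 (3.70, SE 0.24), Pdk4 (2.25, SE 0.21) and the lipid droplet gene Plin2 (2.10, SE 0.26) rose, and the dehydrogenase gene Acadvl fell (−0.51). The paper already gives Pdk4 and Plin2 as examples of genes that SR-3420 induced in this experiment. Of 23 ERR targets, the growth factor gene Vegfa rose (0.87) and 0 fell, and of 23 coregulators Pprc1, a PGC-1 related coactivator (1.11), and the corepressor gene Tle3 (1.08) rose and Ncoa2 fell (−0.69). Of 25 nuclear receptors 2 rose, among them the immediate early receptor gene Nr4a1 (2.04), and Esr1 fell (−0.97). The adipocyte markers summed to 19782 and 16535 CPM, with 0 of 8 called by edgeR, 1 at an unadjusted p below 0.05 and 0 by DESeq2. The fibroblast markers summed to 5220 and 3861 CPM, above both vehicle samples, with 1 of 8 called, Col1a2 (0.91). Of 7 brown markers tested Cox8b fell (−0.98) and 0 rose, though 5 of the 7 had a log2 fold change above 0, with a median of 0.47. The part of these marker changes in the results was not tested.

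SR-3420 added to triacsin C asked what lipolysis does when the released fatty acids cannot be activated. Ppara and Rxrg fell and Ncoa1 rose, 2 of 10 lower where 19.7% of all genes fell and 1 of 10 higher where 17.3% rose, shares near those of all genes. Ppara had 50.7, 50.7 and 45.0 CPM in triacsin C and 19.9, 27.6 and 24.5 CPM with SR-3420. The groups did not overlap, and Ppara fell by 1.03 (SE 0.23, 95% CI −1.52 to −0.54, edgeR adjusted p = 0.00324). Rxrg, the RXR known for its expression in muscle and brain, had 20.2, 20.4 and 20.3 CPM in triacsin C and 8.26, 9.02 and 6.19 CPM with SR-3420. These were its lowest levels with 1 exception among etomoxir samples with SR-3420, at 7.96 CPM, and Rxrg fell by 1.37 (SE 0.22, 95% CI −1.86 to −0.89, edgeR adjusted p = 0.000398).

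Ncoa1 went from 36.4, 31.5 and 33.2 CPM in triacsin C to 58.1, 54.2 and 55.8 CPM with SR-3420. All 3 samples lay above those of triacsin C and below those of every group without triacsin C. It rose by 0.73 (SE 0.13, 95% CI 0.45 to 1.01, edgeR adjusted p = 0.000755). The calls of all 3 genes were kept in 6 of 6 fits without 1 sample. Genomic span moved with this comparison the other way, with a Spearman correlation of 0.455 and class medians from −0.46 under 5 kb to 0.77 over 160 kb. Ncoa1, in the class over 160 kb, lay −0.04 from that median, and with the trend over span removed its log2 fold change reversed to −0.11 (edgeR adjusted p = 0.558). With the same step Ppara (−1.55) and Rxrg (−1.64) were still called, Pparg (−0.71) and Ppargc1b (−1.0) were also called, and the calls over all genes went from 2208 higher and 2514 lower to 1093 and 2804. Without that step Pparg, with 110, 116 and 130 CPM, and Rxra, with 171, 153 and 135 CPM, had log2 fold changes of 0.01 and −0.05. Nrip1 had 114, 112 and 119 CPM and Ppargc1b 28, 25 and 19.3 CPM, and neither was called.

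Many targets of these receptors fell in this comparison, where 19.7% of all genes fell and 17.3% rose. The share of all genes that fell was 36.4% under 5 kb of genomic span and 2.85% over 160 kb. The part of genomic span in the counts of these lists was not tested. Of 45 PPAR targets 27 fell and 4 rose, with a median of −0.88 against 0.02 for all genes. The peroxisomal enzyme gene Ehhadh (−1.83), the adipokine gene Adipoq (−1.68) and the glycerol channel gene Aqp7 (−1.63) fell, and Fgf21 (2.13), Plin2 (1.23) and Pdk4 (1.19) rose. Of 23 ERR targets, many of them genes of the respiratory chain and the citric acid cycle, 17 fell and 1 rose, with a median of −0.94. They included Cox4i1 (−1.21), Cox6a1 (−1.09) and Suclg1 (−1.05), and Vegfa rose (0.79). Of 23 coregulators 10 rose and 3 fell, with a median of 0.41, among them Ncoa7 (0.97), Pprc1 (0.92) and Ncoa3 (0.81) above and Lcor (−0.94), Lpin1 (−0.92) and Ncoa4 (−0.82) below. Of 25 nuclear receptors 10 rose and 1 fell, with a median of 0.46: Nr4a1 (1.84), Rora (1.55) and Nr6a1 (1.20) were the furthest up and the LXRα gene Nr1h3 (−1.27) fell.

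The adipocyte markers moved with these results. They summed to 10173, 9874 and 10252 CPM in triacsin C with SR-3420, below every other group except 1 etomoxir sample with SR-3420, and 8 of 8 fell, with a median of −1.34. Of these 8 genes, 5 are also on the PPAR target list (Fabp4, Lpl, Cidec, Plin1 and Adipoq). The fibroblast markers summed to 6069, 5133 and 4250 CPM against 3414, 2961 and 2599 CPM in triacsin C, and 4 of 8 rose. Of 7 brown markers tested 3 fell, Cox8b (−1.99) the furthest, and 2 rose, Ebf2 (0.97) and Prdm16 (0.74). Cd68 fell (−1.29), the endothelial marker Kdr rose, both here (0.96) and where SR-3420 was added to etomoxir (1.28), at up to 2.78 CPM in any sample, and of the muscle markers 2 were tested and 0 called by edgeR in any comparison, with at most 1 at an unadjusted p below 0.05 and 1 by DESeq2, the latter for triacsin C against vehicle. The part of the marker changes in the levels of the receptors and their targets was not tested.

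**Figure D4:**
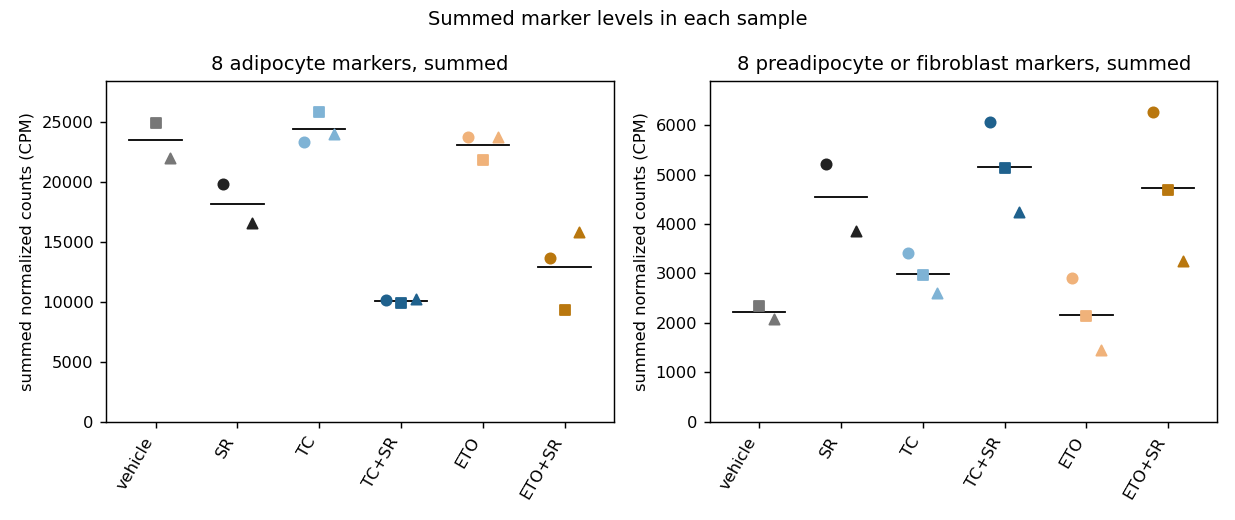
Summed normalized counts (CPM) of the 8 adipocyte markers and of the 8 preadipocyte or fibroblast markers in each sample, with 1 point per sample and a line at each group mean. The adipocyte sums lie between 9329 and 15852 CPM in both groups that had an inhibitor and SR-3420, and at 16535 CPM or above in all other samples.

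SR-3420 added to etomoxir asked the same where activated fatty acids cannot enter mitochondria by CPT1. Pparg, Rxra, Rxrg and Ncoa1 fell, 4 of 10 where 12.8% of all genes fell, and 0 rose, where 12.5% of all genes rose. At an unadjusted p below 0.05 stood 5 of the 10, all lower, and DESeq2 called 4. Pparg went from 237, 258 and 298 CPM in etomoxir to 132, 124 and 202 CPM with SR-3420. The groups did not overlap, and Pparg fell by 0.79 (SE 0.17, edgeR adjusted p = 0.0046). Rxra went from 431, 379 and 272 CPM to 240, 161 and 176 CPM. It lay lower in all 3 samples and fell by 0.91 (SE 0.22, edgeR adjusted p = 0.00821).

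Rxrg went from 25.9, 24.9 and 18.2 CPM in etomoxir to 13.9, 7.96 and 11.8 CPM, lower in all 3 samples, and fell by 1.03 (SE 0.22, edgeR adjusted p = 0.004). The calls of these 3 receptors were kept in 6 of 6 fits without 1 sample. Ncoa1 went from 119, 127 and 133 CPM to 86.1, 77.6 and 111 CPM, again with no overlap. It fell by 0.47 (SE 0.13, edgeR adjusted p = 0.0171), a call lost without etomoxir replicate 2 or without replicate 1 or 2 of etomoxir with SR-3420, at an edgeR adjusted p of up to 0.0834. In a fit of these 2 groups only, all 4 calls were lost, at edgeR adjusted p-values of 0.0518 to 0.131 and log2 fold changes of −1.04 to −0.49. Replicate 3 of etomoxir with SR-3420 had the highest level of its group for Ppara (117 CPM against 64.3 and 55.7), Pparg, Ncoa1 and Nrip1 (263 CPM against 213 and 163). Nrip1 lay below all etomoxir samples, at 265, 271 and 308 CPM, with a log2 fold change of −0.40 (edgeR adjusted p = 0.0707).

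Of 45 PPAR targets 17 fell and 4 rose where SR-3420 was added to etomoxir, against 12.8% and 12.5% of all genes. Their median was −0.54, with Ehhadh (−1.28), Adipoq (−1.24) and Cidec (−1.08) below and Fgf21 (1.62), Pdk4 (1.61) and Angptl4 (1.57) above. Of 23 ERR targets 8 fell and 1 rose, with a median of −0.55, among them Suclg1 (−0.76), Sdhb (−0.62) and Etfdh (−0.61), with Vegfa (1.26) above. Of 23 coregulators Pprc1 (1.1) and Tle3 (0.89) rose and Ncoa2 (−0.77) fell, and of 25 nuclear receptors 6 rose, led by Nr4a1 (2.04), Nr1d1 (0.85) and Nr4a2 (0.67), and Esr1 (−1.06) and Nr1h3 (−0.97) fell. The adipocyte markers summed to 13641, 9329 and 15852 CPM, against 23706, 21810 and 23748 CPM in etomoxir, and 6 of 8 fell. The fibroblast markers summed to 6264, 4697 and 3244 CPM against 2904, 2134 and 1449 CPM, and 5 of 8 rose. Of 7 brown markers Cox8b fell (−1.25) and 0 rose, though 5 were above 0, with a median of 0.18. The part of these marker changes was not tested.

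Triacsin C with SR-3420 was also set against SR-3420 alone, which shares samples with the comparisons above. Here 6 of the 10 genes fell (Ppara, Rxra, Rxrg, Ppargc1b, Ncoa1 and Nrip1), where 3.55% of all genes fell, and 0 rose, where 1.02% of all genes rose. At an unadjusted p below 0.05 stood 8 of the 10, all lower, and DESeq2 called 7, adding Pparg. Ppargc1b had 160 and 113 CPM in SR-3420 and 28, 25 and 19.3 CPM in triacsin C with SR-3420. The groups lay far apart, and it fell by 2.5 (SE 0.29, 95% CI −3.13 to −1.88, edgeR adjusted p = 0.000774). Ppara had 123 and 113 CPM against 19.9, 27.6 and 24.5 CPM, and fell by 2.30 (SE 0.25, 95% CI −2.83 to −1.76, edgeR adjusted p = 0.000577). Of the 1988 genes with a span of 40 to 80 kb, 0 had a lower fold change than Ppara.

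Nrip1 (277 and 245 CPM against 114, 112 and 119 CPM) fell by 1.18 (SE 0.17, edgeR adjusted p = 0.00242). The calls of Ppargc1b, Ppara and Nrip1 were kept in 5 of 5 fits without 1 sample. Rxrg fell by 1.52 (SE 0.24, edgeR adjusted p = 0.00405) and Ncoa1 by 0.98 (SE 0.14, edgeR adjusted p = 0.00257), each lower in all 3 samples. Without SR-3420 replicate 1 both calls were lost, at edgeR adjusted p-values of 0.0781 and 0.0569, so that 3 of the 10 genes were called, while the calls over all genes went from 131 higher and 454 lower to 7 and 47. In a fit of these 2 groups only, that of Rxrg was also lost (edgeR adjusted p = 0.0593). Rxra fell by 0.92 (SE 0.24, edgeR adjusted p = 0.0447). Its call was lost without SR-3420 replicate 1 or any 1 replicate of triacsin C with SR-3420, at an edgeR adjusted p of up to 0.508 and a log2 fold change of −1.15 to −0.64. It was also lost with DESeq2's size factors (edgeR adjusted p = 0.0504), in a fit of these 2 groups only (0.106) and with the trend over span removed (0.102). Of 45 PPAR targets 15 fell and 0 rose, where 3.55% of all genes fell and 1.02% rose. They were led by Agpat2 (−1.90), Ucp3 (−1.83) and Plin1 (−1.45). Of 23 ERR targets 2 fell, Cs (−0.66) and Uqcrfs1 (−0.51). Of 23 coregulators 4 fell, led by Prdm16 (−1.34), Lpin1 (−1.24) and Tle3 (−0.92), and of 25 nuclear receptors edgeR called 0, with 6 at an unadjusted p below 0.05 and 3 by DESeq2. Of the adipocyte markers 4 of 8 fell, led by Plin1, and of 7 brown markers Prdm16, with 6 below 0. All 8 adipocyte markers had a log2 fold change below 0, with a median of −1.11. Of the 8 fibroblast markers 7 were above 0, with a median of 0.32. Both edgeR and DESeq2 called 0 of these fibroblast markers, with 1 at an unadjusted p below 0.05. The part of these marker changes in the lower levels of the 10 genes was not tested.

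Etomoxir with SR-3420 against SR-3420 alone had 0 of the 10 genes called in edgeR, with 4 at an unadjusted p below 0.05 and 1 called by DESeq2, Rxrg, where 0.00782% of all genes were called (1 gene, with 1279 at an unadjusted p below 0.05 and 86 by DESeq2). All 10 log2 fold changes were below 0, with a median of −0.52. Rxrg, with 25.9 and 19.1 CPM in SR-3420 and 13.9, 7.96 and 11.8 CPM here, had a log2 fold change of −0.99 (edgeR adjusted p = 0.216, DESeq2 adjusted p = 0.0265). Without replicate 3 of etomoxir with SR-3420, 1 of the 10 genes was called, Ppara (edgeR adjusted p = 0.0471), and 12 of all genes, each lower. These counts depended on the model. Blocking on replicate number gave 5 of the 10 genes and 1838 of all genes. Such numbers are not said to mark shared cultures. In the model without blocking, edgeR called 0 of 45 PPAR targets, with 19 at an unadjusted p below 0.05 and 1 by DESeq2. Of 23 ERR targets it also called 0, with 11 at an unadjusted p below 0.05 and 0 by DESeq2, and the same held for the other coregulators and nuclear receptors, with 2 and 4 at an unadjusted p below 0.05. The adipocyte markers, at 13641, 9329 and 15852 CPM, summed to less than in both SR-3420 samples, at 19782 and 16535 CPM. All 8 had a log2 fold change below 0, with a median of −0.81, and edgeR called 0, with 5 at an unadjusted p below 0.05 and 0 by DESeq2. Their part in the lower levels of the 10 genes was not tested.

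Whether the response to SR-3420 differed between inhibitors was tested as a difference of differences. Between triacsin C and no inhibitor 3 of the 10 genes differed, where 2.51% of all genes did. The SR-3420 response of Ppara was a log2 fold change of 0.44 without inhibitor and −1.03 with triacsin C, a difference of −1.47 (SE 0.35, edgeR adjusted p = 0.0468). That of Rxrg was 0.11 and −1.37, a difference of −1.49 (SE 0.35, edgeR adjusted p = 0.0406), and that of Ncoa1 was −0.28 and 0.73, a difference of 1.02 (SE 0.20, edgeR adjusted p = 0.0212). These 3 calls lay close to the threshold. Among 10 fits that each left out 1 of the 10 samples, Ppara was called in 0 (edgeR adjusted p 0.0799 to 0.233), Rxrg in 1, that without SR-3420 replicate 3 (up to 0.209), and Ncoa1 in 3, those without triacsin C replicate 1 or without replicate 2 or 3 of triacsin C with SR-3420 (up to 0.111). With no filter on low counts only that of Ncoa1 was called, and Ppara also missed the threshold with DESeq2's size factors (edgeR adjusted p = 0.0518) and with library size as the only scaling (0.0720). With the trend over span removed Ppara was called (−2.0, edgeR adjusted p = 0.0177) and neither Rxrg (−1.79, 0.0654) nor Ncoa1 (0.21, 0.696) was, while the calls over all genes went from 158 higher and 163 lower to 13 and 123. Ppargc1b (−1.42, edgeR adjusted p = 0.0927) and Pparg (0.83, edgeR adjusted p = 0.132) missed the threshold.

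Between triacsin C and etomoxir 1 of the 10 genes differed in its response to SR-3420, where 2.29% of all genes did. Ncoa1 rose with SR-3420 in triacsin C and fell with it in etomoxir, 0.73 against −0.47, a difference of 1.20 (SE 0.18, 95% CI 0.81 to 1.59, edgeR adjusted p = 0.00558). This call was kept in 12 of 12 fits without 1 sample. It was lost with the trend over span removed, at 0.54 (edgeR adjusted p = 0.239), where the calls over all genes went from 194 higher and 99 lower to 13 and 75. DESeq2 called 3, adding Pparg (0.83) and Nrip1 (0.72), and without replicate 3 of etomoxir with SR-3420 the count was also 3. Between etomoxir and no inhibitor edgeR called 0 of the 10 genes, with 2 at an unadjusted p below 0.05 and 0 by DESeq2, where 0% of all genes were called, with 307 at an unadjusted p below 0.05 and 9 by DESeq2. Of 45 PPAR targets 11 had a lower response with triacsin C than without inhibitor and 0 a higher one. Over all genes these shares were 1.27% and 1.24%. The lower ones were led by Ucp3 (−2.15), Fgf21 (−1.57) and Aqp7 (−1.41). Against etomoxir the response of Angptl4 was lower (−0.70). Among coregulators Ncoa2 differed the same way as Ncoa1, by 1.49 against no inhibitor and by 1.57 against etomoxir. Tbl1x differed by 0.63 against etomoxir, and among nuclear receptors Esr1 differed by 1.96 and 2.05. The part of genomic span in the differences of these list genes was not tested. Of 23 ERR targets edgeR called 0 in the tests with triacsin C, with 11 against no inhibitor and 3 against etomoxir at an unadjusted p below 0.05, and DESeq2 called 5 and 2. Between etomoxir and no inhibitor edgeR called 0 genes of the 4 lists, with 9 PPAR targets, 1 ERR target, 0 coregulators and 1 nuclear receptor at an unadjusted p below 0.05 and 1 PPAR target by DESeq2.

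Marker genes were compared in the same tests. Between triacsin C and no inhibitor all 8 adipocyte markers had a negative difference, with a median of −1.14, and edgeR called 0, with 6 at an unadjusted p below 0.05 and 2 by DESeq2. Against etomoxir all 8 were again negative, with a median of −0.49 and 0 called by edgeR, 0 at an unadjusted p below 0.05 and 0 by DESeq2. Cd68 had a lower response with triacsin C than without inhibitor (−1.98) and than with etomoxir (−1.44), and both differences passed the test. Of the 8 fibroblast markers edgeR and DESeq2 called 0 in these tests, with 0 at an unadjusted p below 0.05. Of 7 brown markers edgeR called 0 in both, with 4 at an unadjusted p below 0.05 in each, and DESeq2 called 3 against no inhibitor and 1 against etomoxir. The part of these marker values in the differences of the 10 genes was not tested.

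The make-up of each receptor family was followed as the share of each gene in the family's CPM per kb, a description without a test. The PPAR sum had a mean of 231 CPM per kb in vehicle (SD 3.73, n = 2), 161 in SR-3420 (SD 2.31, n = 2), 102 in triacsin C (SD 4.27, n = 3), 98.2 in triacsin C with SR-3420 (SD 2.82, n = 3), 190.4 in etomoxir (SD 6.37, n = 3) and 123 in etomoxir with SR-3420 (SD 23.9, n = 3). Pparg made up most of it everywhere, from 62.3% in triacsin C (SD 2.77) to 76.5% in vehicle (SD 5.24). The share of Ppara was 5.21% in vehicle, 10.2% in SR-3420, 6.66% in triacsin C, 3.38% in triacsin C with SR-3420, 5.78% in etomoxir and 8.67% in etomoxir with SR-3420, each with an SD of at most 1.94. Its samples in triacsin C with SR-3420, at 2.87% to 3.78%, lay below all others.

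Among the RXRs the order of the genes differed between groups. Rxra made up 63.4% of the RXR sum in vehicle (SD 0.725) and 59.1% in etomoxir (SD 1.15), against 37.6% in triacsin C (SD 0.588) and 43.2% in triacsin C with SR-3420 (SD 1.35). Rxrb, whose group means varied by a ratio of 1.18 while single samples ran from 25.3 to 48.6 CPM per kb, made up 29.4% in vehicle (SD 0.369) and 50.3% in triacsin C (SD 1.18), so that it was the most abundant RXR per kb in both groups with triacsin C. Without division by length Rxra kept the larger share there, with 55.6% against 37.2% for Rxrb in triacsin C. In SR-3420 alone and in etomoxir with SR-3420, Rxra made up 52.7% and 47.6% and Rxrb 37.1% and 45.5%. Rxrg made up 12.0% in triacsin C and 5.44% once SR-3420 was added.

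**Figure D5:**
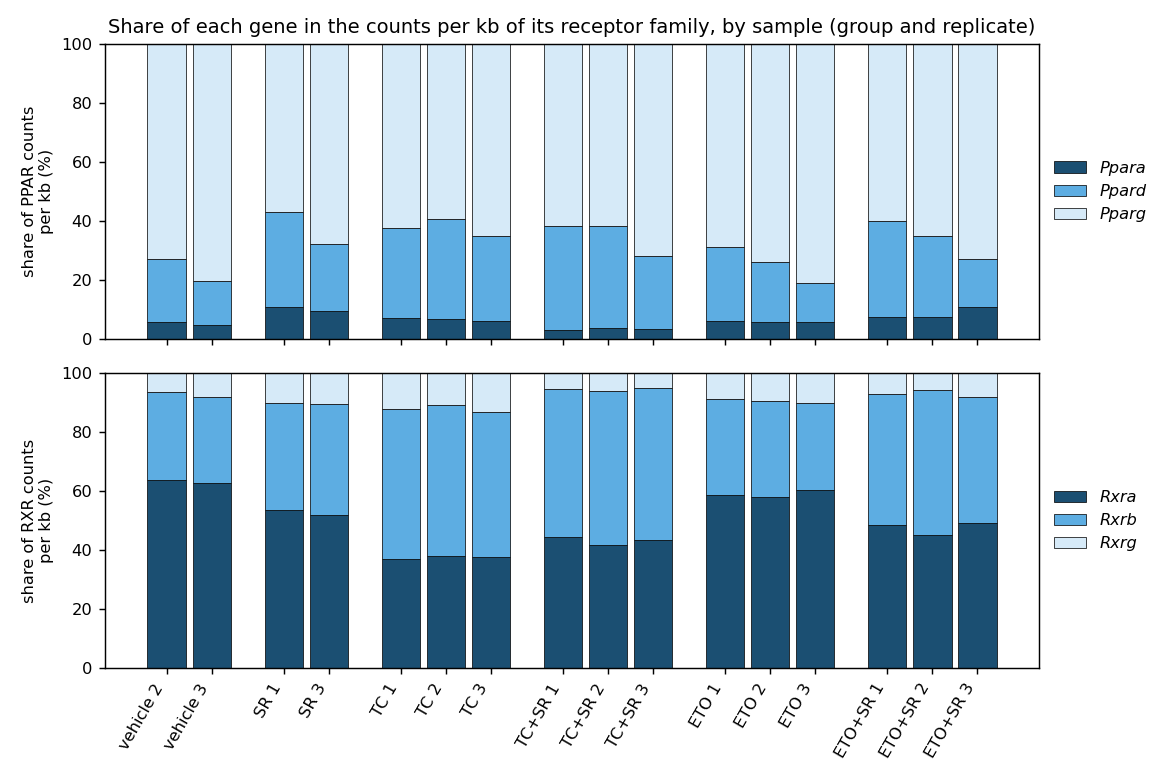
Share (%) of each gene in the summed counts per kb of the PPARs (top) and RXRs (bottom), with 1 stacked bar per sample, labelled by group and replicate. Pparg takes the largest share of the PPARs in all 16 samples, and Rxrb takes more than Rxra in the 6 samples with triacsin C and in 1 sample of etomoxir with SR-3420.

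Across the 16 samples, which fall into 6 treatment groups so that each coefficient mixes differences between and within groups, the 10 genes varied together to different degrees. The highest Pearson correlation of log2 CPM was 0.971 (n = 16) between Ncoa1 and Nrip1, a coactivator and a corepressor of the same receptors. Ppard and Esrra, neither of which was called by the edgeR model of group means, followed at 0.912, and Ppara and Ppargc1b had 0.879. Ppard was lowest in replicate 3 in every group, and Esrra in every group except triacsin C and etomoxir with SR-3420. The part of replicate number in this coefficient of Ppard and Esrra was not tested. The lowest was −0.122, between Rxrb and Nrip1.

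The genes whose profile over the same 16 samples was most like each member were sought among 10334 genes with a mean of at least 5 CPM. Pparg was most like Rbl2 (Pearson r = 0.976), Kif1b (0.974) and Ccdc69 (0.972), and Ppara was most like Pfkfb3 (0.955), Tmcc3 (0.948) and Dlc1 (0.938). Rxra was most like Nacc2 (0.986), Dapk1 (0.981) and Atg7 (0.978), and Rxrg was most like Naa60 (0.973), Dnajc16 (0.972) and Fam102a (0.969). Ppargc1b was most like Bcar3 (0.957), Tns1 (0.952) and Rreb1 (0.951), Ncoa1 was most like Prkag2 (0.987), Arhgap32 (0.985) and Prkce (0.984), and Nrip1 was most like Nhsl2 (0.986), Sik2 (0.981) and Cpeb3 (0.976).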

How the data were processed

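RNA was sequenced from 16 samples in 6 groups. The values are whole-number read counts per gene, made by the authors, who aligned reads to mm9 with STAR 2.4.2a, kept 1 read per position and length with HOMER and counted reads per gene with iRNA-seq before they were deposited. Keeping 1 read per position limits the counts of abundant short transcripts. Of 20295 genes, 12786 passed filterByExpr and were fitted in edgeR 4.0.16 (R 4.3.3, limma 3.58.1) with TMM normalization as 1 quasi-likelihood model of 6 group means without covariates. The 10 comparisons were contrasts of those means, two-sided, with p-values adjusted by Benjamini-Hochberg across the genes fitted and called below 0.05 at any fold. Standard errors were the log2 fold change divided by the square root of F, with 95% intervals. Levels are CPM with TMM, divided by counted exon length where genes are compared. Total counts of 9452861 to 25670624 per sample set the precision, and intervals cover the spread between cultures. The 14 pairs of samples within groups held no identical libraries.

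The 10 genes are all named. From each gene list, at most 3 genes per direction and comparison are named, those with the largest log2 fold change among genes called with a mean of at least 5 CPM, and marker genes at lower levels are named for their cell type. For likeness, the 3 genes with the highest Pearson correlation of log2 CPM (prior count 2) are named for each member called at least once. The members and lists were chosen with earlier results of these data known. Alternatives were DESeq2 1.42.0 (Wald test), its size factors in edgeR, no filter on low counts, at least 10 counts in every sample, the replicate number as a block, only the groups compared, leaving out each sample, shares without division by length, and, chosen after seeing the data, library size only and an offset that removes each sample's trend over genomic span (natural spline, 5 degrees of freedom). No sample was left out of the model.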

Additional observations from a re-analysis of the deposited data

Results flagged for a closer look

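The response to SR-3420 differed between pretreatments, by a test of the difference itself, for 3 of the 10 genes. Of all genes, 2.51% differed between triacsin C and no inhibitor and 2.29% between triacsin C and etomoxir. Against cells without inhibitor, the response with triacsin C was lower for Ppara (difference of log2 fold changes −1.47) and Rxrg (−1.49) and higher for Ncoa1 (1.02). Against cells with etomoxir, the response with triacsin C was higher for Ncoa1 (1.20). The differences against no inhibitor lay close to the threshold: among 10 fits that each left out 1 sample, Ppara was called in 0, Rxrg in 1 and Ncoa1 in 3. Without a filter on low counts, only the difference of Ncoa1 against no inhibitor was called among them. That of Ppara also missed the threshold with DESeq2's size factors and with library size as the only scaling. With the trend over genomic span removed, that of Ppara was called at −2.0 and that of Rxrg was −1.79 and not called. Those of Ncoa1 were then 0.21 against no inhibitor and 0.54 against etomoxir, neither called. The difference of Ncoa1 against etomoxir was called in 12 of 12 fits without 1 sample.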

How the results depend on the processing

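Apart from fits that left out a sample, the 24 calls of single genes were recomputed under 8 other settings each, which gave 192 values. Of these, 171 kept direction and side of the threshold, 20 kept direction but missed the threshold, and 1 reversed: Ncoa1 for SR-3420 added to triacsin C was −0.11 with the trend over genomic span removed. The count of the 10 genes called for that comparison stayed within 1.5 times under every setting. For SR-3420 against vehicle the count of 1 became 0 without a filter on low counts, 0 with only the compared groups, 2 with DESeq2 and 2 with library size only. For SR-3420 added to etomoxir the count of 4 became 0 with only the compared groups, a setting that gave 3 for SR-3420 added to triacsin C. For triacsin C against vehicle the count of 6 became 3 with the trend over span removed, which was chosen after seeing the data. For etomoxir with SR-3420 against SR-3420 the count of 0 became 1 with DESeq2. For the difference in response between triacsin C and no inhibitor the count of 3 became 1 without a filter and 1 with the trend removed, and for that between triacsin C and etomoxir the count of 1 became 3 with DESeq2 and 0 with the trend removed. Library size only moved the median of all genes by −0.11 and 0.13 in SR-3420 against vehicle and in the difference between triacsin C and no inhibitor, and removing the trend moved it by −0.16 for SR-3420 added to triacsin C and by −0.12 in that difference. The cause of these changes was not tested. The paper states that its RNA-seq came from 3 independent experiments, but replicate numbers are not said to mark these or shared cultures. After group means were removed, the 35 pairs of samples with the same number in different groups had a mean correlation of 0.410, against −0.203 for other pairs. With group means removed, deviations cancel within each group, so other pairs are pulled below 0 when same-number pairs lie above it. The −0.203 is therefore not an independent reference. Of the 35, 27 lay over 0.1, and 11 of the 16 samples correlated best with samples of their own number, a hint from the data and not the design. With the number as a block, the 24 calls were kept and 17 added, with counts of 3 for SR-3420 against vehicle, 9 for SR-3420 with triacsin C against without it, 5 for etomoxir with SR-3420 against SR-3420, 5 for the difference between triacsin C and no inhibitor and 4 for that between triacsin C and etomoxir. For triacsin C against vehicle the block gave 7 and for SR-3420 added to etomoxir 5. The added calls include Ppard for triacsin C against vehicle and for each inhibitor in cells with SR-3420, and Esrra for each inhibitor in cells with SR-3420. Leaving out 1 sample at a time gave counts of 0 to 0 for SR-3420 against vehicle, 3 to 6 for SR-3420 with triacsin C against without it, 0 to 1 for etomoxir with SR-3420 against SR-3420, 0 to 1 for the difference between triacsin C and no inhibitor and 1 to 3 for that between triacsin C and etomoxir. Of the 24 calls, 14 were kept in every such fit. The groups without inhibitor hold 2 samples each, so that some of these fits leave 1 and assume that it varies like the other groups. The lowest count of a member was 66, in Rxrg, where counting error is largest. Over all genes, the block raised the calls from 964 to 2438 for SR-3420 against vehicle, 4722 to 7185 for SR-3420 added to triacsin C, 3234 to 5776 for SR-3420 added to etomoxir, 1497 to 3072 for triacsin C, 3 to 6 for etomoxir, 585 to 3008 and 1 to 1838 for triacsin C and etomoxir in cells with SR-3420, and 321 to 1669, 0 to 3 and 293 to 1055 for the differences of triacsin C from no inhibitor, etomoxir from no inhibitor and triacsin C from etomoxir. Where other settings moved these counts by over 1.5 times, DESeq2 gave 1569 for SR-3420 against vehicle, 17 for etomoxir, 1204 and 86 for the inhibitors in cells with SR-3420, and 809, 9 and 656 for the differences. Only the compared groups gave 46 for SR-3420 against vehicle, 1205 for SR-3420 added to etomoxir, 0 for etomoxir, and 78 and 0 for the inhibitors in cells with SR-3420. Removing the trend gave 986 for triacsin C, 6 for etomoxir, and 136 and 88 for the differences of triacsin C from no inhibitor and from etomoxir. No filter gave 163 for the difference of triacsin C from no inhibitor and 0 for etomoxir in cells with SR-3420, where library size only also gave 0. Leaving out 1 sample at a time, the calls over all genes were 306 to 504 for SR-3420 against vehicle, 3506 to 4056 for SR-3420 added to triacsin C, 1989 to 3198 for SR-3420 added to etomoxir, 702 to 1089 for triacsin C, 0 to 3 for etomoxir, 54 to 401 and 0 to 12 for triacsin C and etomoxir in cells with SR-3420, 53 to 179 for the difference of triacsin C from no inhibitor, 0 to 0 for that of etomoxir and 145 to 262 for that of triacsin C from etomoxir. The lowest of these for SR-3420 against vehicle, triacsin C and the difference of triacsin C from no inhibitor came without vehicle replicate 3, and the 54 came without SR-3420 replicate 1.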
